A study of Macaca mulatta with 21 samples.

Results

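RiPS2 and RiPS3 are induced pluripotent lines of the rhesus macaque, Macaca mulatta, and each was made from skin fibroblasts of an adult female, aged 10 years for RiPS2 and 8 years for RiPS3. OCT4, SOX2, Klf4 and cMYC were delivered to the fibroblasts of both lines by retrovirus. Each line was profiled on 3 Affymetrix arrays labelled as biological replicates A, B and C, and the values are log2 signals from RMA, the array summary named in the submitters' processing notes. The comparison covers all probe sets with 1 gene symbol that reached log2 5 on at least 3 of the 6 arrays. These were 17013 of the 24969 one-symbol probe sets among 52865 on the array, and they cover 10512 of 14133 genes. The other 7956 one-symbol probe sets stayed below the filter. A further limit is that 93 probe sets passed through the arrays of 1 line alone, and 20 of these were called.

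The series holds 21 arrays, 3 for each of 7 groups, and it was designed around X-chromosome inactivation. Besides RiPS2 and RiPS3 these are RiPS1, an induced male line from fetal skin fibroblasts, CRES-3 and CRES-1, female and male lines from embryos cloned by somatic cell nuclear transfer, ORMES23, a male line from an embryo fertilised in vitro, and skin fibroblasts of a female aged 8 years. All pluripotent lines grew on mitotically inactivated mouse embryonic fibroblasts in serum, and colonies of undifferentiated appearance were lifted by hand for RNA. RiPS2 and RiPS3 are each 1 line from 1 donor of a different age, so donor, age, derivation and line cannot be told apart. The labels do not say whether the profiled fibroblasts came from the donor of RiPS3. Nor do they say what separated the replicates of a line, so a p-value measures the spread between replicate arrays. This spread was pooled over all 7 groups, so it is not that of RiPS2 and RiPS3 alone.

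Reprogramming switches off the program of the fibroblast and switches on a self-sustaining network around POU5F1 (the gene of OCT4), SOX2 and NANOG. Primate pluripotent cells in serum usually resemble the primed state of the post-implantation epiblast, and some cells in such cultures begin to leave it, often towards mesendoderm, with expression of GSC, CER1 or GATA6. Induced lines can differ through the genotype of the donor, through marks that reprogramming left incomplete, and through drift in culture.

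The 6 arrays did not split cleanly by line. RiPS2 B correlated with RiPS2 A and C at r = 0.972 and 0.981, and with RiPS3 A, B and C at r = 0.981, 0.975 and 0.981. RiPS3 A correlated with RiPS2 A, B and C at r = 0.974, 0.981 and 0.982, and with RiPS3 B and C at r = 0.981 and 0.975. RiPS2 A and RiPS3 B were the least alike at r = 0.948. Over the tested probe sets, the deviation of RiPS2 B from the other RiPS2 arrays and that of RiPS3 A from the other RiPS3 arrays correlated at r = -0.53. RiPS2 B and RiPS3 A were thus about as close to arrays of the other line as to those of their own, and results are given with and without these arrays. Among the other lines ORMES23 A stood apart from its replicates, with r down to 0.964 against 0.995 between the other 2, and leaving it out of the fit gave 62 probe sets higher and 153 lower in RiPS2, against 57 and 130 with it.

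**Figure D1:**
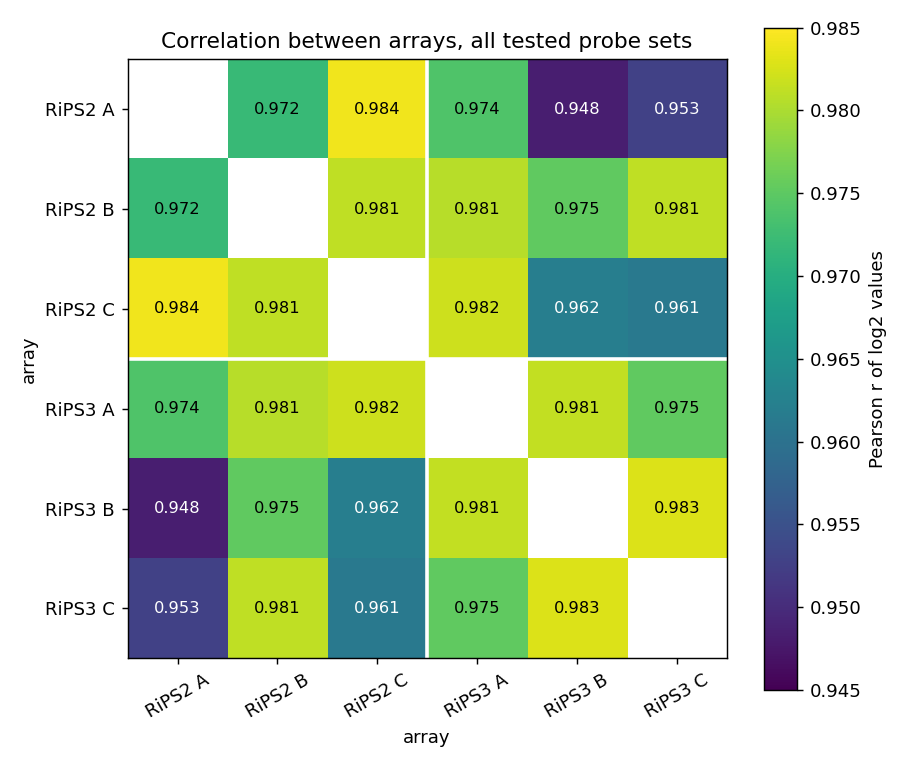
Pearson correlation of log2 signals between each pair of the 6 arrays over the 17013 tested probe sets, RiPS2 arrays first. The lowest value, 0.948, is between RiPS2 A and RiPS3 B, and RiPS2 B has values of 0.975 to 0.981 with the RiPS3 arrays.

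The labels were compared with the data before the lines were. No probe set carried the symbol XIST. In the other lines, 4 probe sets were higher by at least 2 log2 units on every array of CRES-3 and fibroblasts, labelled female, than on every array of the lines labelled male, and 8 differed the other way. RiPS2 lay on the female side for all 4 of the first and for 7 of the 8 others, and RiPS3 for all 4 and all 8. RiPS2 and RiPS3 expressed POU5F1 and SOX2 at log2 12.3 and 12.1 in RiPS2 and at 12.1 and 12.1 in RiPS3, against 4.14 and 4.48 in the fibroblasts. Signals of POU5F1 and SOX2 were thus far above the fibroblasts in both lines, but both genes were among the delivered factors. The NANOG probe set averaged 9.07 in RiPS2 and 8.81 in RiPS3, below the 9.96 of the fibroblasts.

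RiPS2 had higher signal than RiPS3 on 57 probe sets and lower signal on 130, by limma with an adjusted p below 0.05 and a difference of at least 1 log2 unit, which is 2-fold. The calls are 0.335% of the tested probe sets in the first direction and 0.764% in the second. Together these 187 probe sets are 1.1% of those tested and represent 170 genes, 55 higher and 115 lower in RiPS2. Reading each gene by its brightest probe set gave 32 genes higher and 100 lower, which are 0.304% and 0.951% of the 10512 and 1.26% together. Members of gene lists are counted by this brightest set. Of the probe sets with no or several symbols, which lay outside this comparison, 1.42% were called. The median difference over all genes was 0.01 log2 units. The 3 RiPS2 arrays did not overlap the 3 RiPS3 arrays on 179 of the 187 called probe sets, while 20.5% of all tested probe sets, and 21.1% of genes by their brightest set, had arrays that did not overlap. The calls rest on these same arrays, so the first count follows largely from the call and is no support for it.

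The counts depended on which arrays were used. Leaving out RiPS2 A, B or C gave 32, 107 and 32 probe sets higher and 61, 276 and 68 lower in RiPS2. Leaving out RiPS3 A, B or C gave 132, 29 and 28 higher and 212, 41 and 73 lower. With RiPS2 B and RiPS3 A both left out, 259 were higher and 424 lower. These arrays were chosen after their closeness to the other line was seen. A wider gap between the lines is built into that choice, so these counts are a description. In each of the 6 fits that left out 1 array, 23 probe sets were called higher and 35 called lower. The 1.1% called here lies within the range of the other pairs of pluripotent lines, where it ran from 0.0118% for ORMES23 against CRES-1 to 3.46% for RiPS1 against RiPS2. Against fibroblasts it was 32.2% for RiPS2 and 32.7% for RiPS3.

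**Figure D2:**
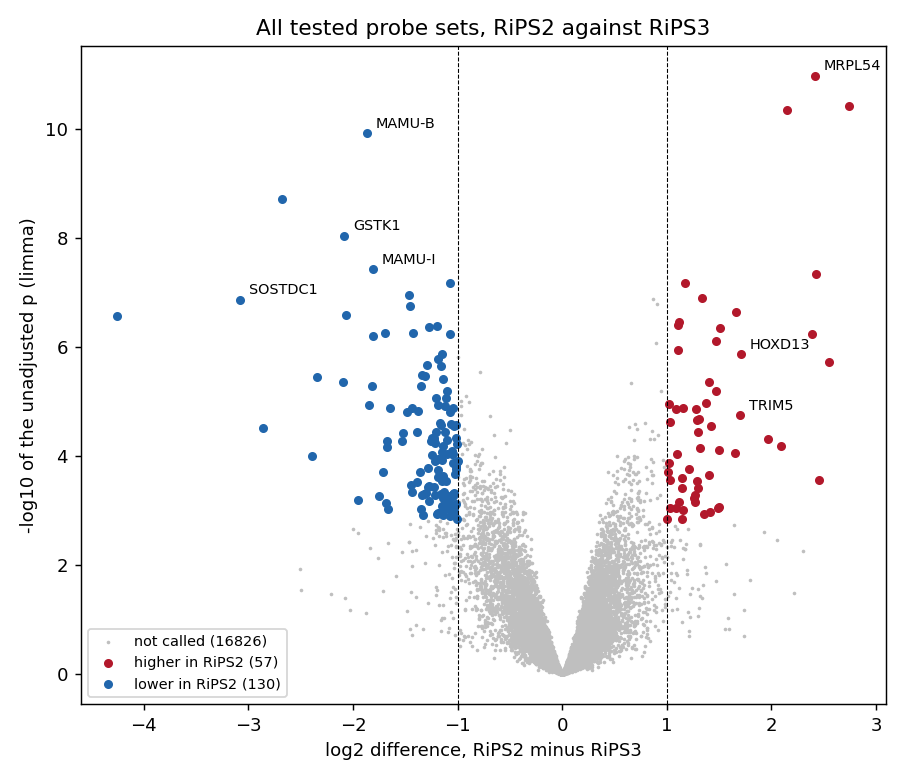
Log2 difference, RiPS2 minus RiPS3, on the horizontal axis against -log10 of the unadjusted limma p on the vertical axis for all tested probe sets, with the 57 called higher in red and the 130 called lower in blue. Dashed lines mark a difference of 1 log2 unit, and MRPL54 and MAMU-B carry the smallest p among the labelled genes.

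By brightest probe set and without LOC placeholder symbols, AKAP7, MRPL54, ZNF534, FAM111A, HOXD13 and TRIM5 had the largest fitted differences called in favour of RiPS2. LOC721315, with a fitted difference of 2.38, would rank among them. It passed the log2 5 filter through its RiPS2 arrays alone, and RiPS2 was at least 1.81-fold higher. MRPL54, a protein of the large subunit of the mitochondrial ribosome, had log2 9.12, 9.21 and 9.24 on the RiPS2 arrays and 6.65, 6.79 and 6.88 on the RiPS3 arrays. The lines lay far apart with little spread, the difference was 2.41 ± 0.16 (SE) and the adjusted p was 1.78e-07 by limma. RiPS2 also lay above the mean of every other line for MRPL54, where CRES-1 came next at 7.64.

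TRIM5, the cytoplasmic factor that blocks incoming retroviral capsids in macaques, had 9.40, 8.99 and 9.21 in RiPS2 and 8.01, 7.44 and 7.05 in RiPS3, a difference of 1.70 ± 0.29 (adjusted p = 0.00406, limma). A dimmer TRIM5 probe set, named after its values were seen, had 7.65, 7.48 and 7.27 in RiPS2 and 4.52, 4.61 and 5.04 in RiPS3 (adjusted p = 2.48e-07, limma), with RiPS2 at least 5.53-fold higher because RiPS3 averaged under the floor of log2 5. The third TRIM5 probe set was at -0.31 and was not called, so the probe sets of this gene disagreed. RiPS3 shared its low level on the brightest TRIM5 set with CRES-3 (7.64) and the fibroblasts (6.02), while the other 3 lines averaged 8.66 to 9.59.

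FAM111A, a protease that restricts the replication of some viruses, had 8.85, 8.00 and 8.35 in RiPS2 and 7.15, 6.26 and 5.90 in RiPS3 (1.97 ± 0.37). The lines did not overlap, but the call was lost without RiPS2 A, RiPS3 B or RiPS3 C, with adjusted p between 0.0523 and 0.0568. DNAJA2, a co-chaperone of HSP70, was higher by 1.47 ± 0.23 and ELAVL1, an RNA-binding protein that stabilises messages, by 1.40 ± 0.21, and both remained called without any 1 array. CCDC17 was higher by 1.51 ± 0.20, also without any 1 array.

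AKAP7, an anchor for protein kinase A, had 7.75, 8.29 and 8.02 in RiPS2 and 7.39, 5.02 and 4.30 in RiPS3. RiPS3 A was thus close to the RiPS2 arrays, and the difference of 2.45 ± 0.54 was not called without RiPS2 A, RiPS2 C, RiPS3 B or RiPS3 C (adjusted p 0.0622 to 0.132). ZNF534, a KRAB zinc finger gene, had 7.31, 6.52 and 7.27 in RiPS2 and 5.97, 4.43 and 4.43 in RiPS3, which is at least 4.09-fold higher when RiPS3 is set to the log2 5 floor. Its call was lost without the same 4 arrays (adjusted p 0.0544 to 0.0755). HSBP1L1, at least 2.46-fold higher in RiPS2, was not called without RiPS3 B (adjusted p = 0.0845) or RiPS3 C (0.0527).

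Among the genes lower in RiPS2, again without LOC symbols, SOSTDC1, TESMIN, KLK7, ADSS1, GSTK1 and SPATA6 had the largest fitted differences. LOC718462 was called on both of its probe sets, at -2.68 ± 0.24 and -1.81 ± 0.28. SOSTDC1, a secreted antagonist of BMP and WNT signalling, had 3.28, 3.35 and 3.66 in RiPS2 and 6.17, 6.81 and 6.56 in RiPS3. All RiPS2 arrays were under the log2 5 floor, so RiPS2 was at least 2.85-fold lower. SOSTDC1 passed the filter through the RiPS3 arrays alone, so its direction was set by the filter and its values are a description. RiPS1 and CRES-1 averaged 6.58 and 6.31, near RiPS3, while CRES-3 and ORMES23 averaged 4.96 and 4.59.

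TESMIN, a gene with a testis-enriched product, had 4.26, 5.97 and 4.12 in RiPS2 and 6.17, 8.55 and 8.19 in RiPS3, at least 6.23-fold lower in RiPS2. RiPS2 B and RiPS3 A nearly met, and without RiPS3 B the adjusted p was 0.0523. SPATA6, which the sperm tail needs for its assembly in mouse, had 5.30, 6.18 and 5.97 in RiPS2 and 7.54, 8.37 and 7.73 in RiPS3 (-2.07 ± 0.26). It remained called without any 1 array.

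GSTK1, a glutathione transferase of mitochondria and peroxisomes, had 6.45, 5.76 and 5.94 in RiPS2 and 7.99, 8.23 and 8.19 in RiPS3 (-2.09 ± 0.21, adjusted p = 2.53e-05, limma). GGCT, which cuts gamma-glutamyl peptides in glutathione turnover, was lower by a difference of -1.84 ± 0.31. Both were called in every fit that left out 1 array. CHAC1, which degrades glutathione, had 5.72, 5.52 and 5.50 in RiPS2 and 7.75, 7.10 and 7.14 in RiPS3 (-1.75 ± 0.42). Its arrays did not overlap, yet it was called in only 1 of the 6 such fits, the one without RiPS2 B, and the adjusted p was 0.0594 to 0.118 without each of the others and 0.0796 without RiPS2 B and RiPS3 A together.

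ADSS1, the muscle form of adenylosuccinate synthase, had 5.15, 6.59 and 5.84 in RiPS2 and 7.14, 8.46 and 8.27 in RiPS3 (-2.10 ± 0.32). NMNAT1, the nuclear enzyme that makes NAD, had 4.63, 3.60 and 4.29 in RiPS2 and 5.83, 6.09 and 5.67 in RiPS3, at least 1.82-fold lower, and it too passed the filter through the RiPS3 arrays alone. C19H19orf12 was lower by -1.80 ± 0.24, and its second probe set by -1.18. ADSS1 and C19H19orf12 remained called without any 1 array. So did NMNAT1, but its direction was set by the filter, so its values are a description. KLK7, a kallikrein protease of epithelia, had 5.63, 7.21 and 5.62 in RiPS2 and 8.34, 8.63 and 8.66 in RiPS3 (-2.39 ± 0.48), and was not called without RiPS2 A, RiPS2 C, RiPS3 B or RiPS3 C (adjusted p 0.0559 to 0.0762).

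**Figure D3:**
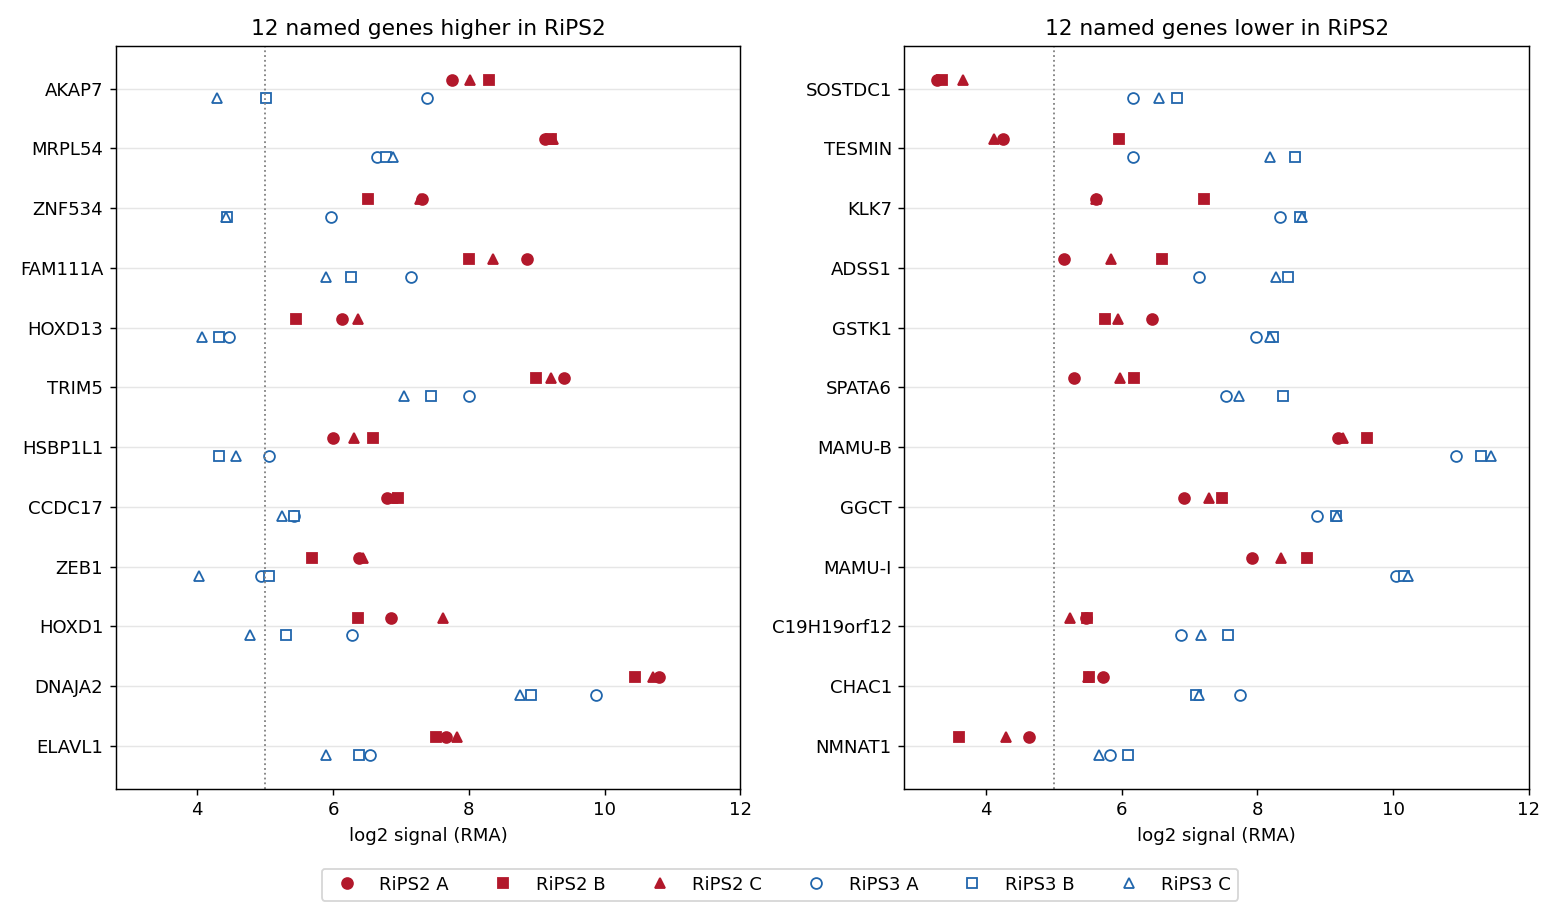
Log2 RMA signal of the 12 genes with the largest called differences in each direction, LOC symbols left out, 1 point per array, with RiPS2 as filled red symbols above RiPS3 as open blue symbols. Circles, squares and triangles are arrays A, B and C, and the dotted line is the log2 5 floor. RiPS3 A, the open circle, lies nearest RiPS2 for AKAP7 and TESMIN, while MRPL54 and MAMU-B show little spread within either line.

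The list with the most calls held genes of the major histocompatibility complex class I, which presents peptides to T cells, together with other antigen presentation genes. The lists were chosen with earlier results of these data known, so this rank is a description. Of 18 tested members, 5 were lower in RiPS2 and none was called higher. Over all genes 0.951% were lower and 0.304% higher. The median difference of the list was -0.16 against 0.01 over all genes. MAMU-B, a classical class I gene, had 9.19, 9.62 and 9.26 in RiPS2 and 10.9, 11.3 and 11.4 in RiPS3 (-1.87 ± 0.14, adjusted p = 4.94e-07, limma). RiPS2 was the lowest of the 7 groups, the others lying at 10.8 to 11.3.

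MAMU-I had 7.92, 8.74 and 8.34 in RiPS2 and 10.0, 10.2 and 10.2 in RiPS3 (-1.81 ± 0.20), and RiPS2 was again the lowest group. MAMU-A, the other classical gene, had 8.50, 9.02 and 8.64 in RiPS2 and 9.79, 10.0 and 9.95 in RiPS3 (-1.20 ± 0.15). For MAMU-A and for MAMU-AG, a nonclassical gene of the placenta, RiPS2 lay between RiPS3 and the 3 male lines. MAMU-AG averaged 11.0 in RiPS2, 12.1 in RiPS3 and 7.67 to 9.50 in the male lines.

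MAMU-AG was called at -1.05 ± 0.21, but without RiPS2 B its difference was -0.97, under the 2-fold limit, and without RiPS3 B it was -0.91 with an adjusted p of 0.0897. MICB, a stress ligand of the NKG2D receptor, was called at -1.02 ± 0.22 and lost its call without RiPS2 A, RiPS2 C, RiPS3 B or RiPS3 C (adjusted p 0.0863 to 0.119). MAMU-E, a nonclassical gene, went the other way on its brightest probe set at 0.91 ± 0.22, under the 2-fold limit. Its other sets were at -0.35 and 0.20 and were not called, so the probe sets of MAMU-E disagreed in direction. The number of members lower in RiPS2 was 4, 4 and 4 without RiPS2 A, B or C, and 5, 3 and 4 without RiPS3 A, B or C. The brightest MAMU-E set was called higher without RiPS2 C or RiPS3 C.

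The partners of class I were closer to equal. B2M, the light chain of class I, had 12.7, 12.6 and 12.4 in RiPS2 and 12.8, 12.8 and 12.8 in RiPS3, and was not called. TAP1 and TAP2, the peptide transporter, were at -0.38 and -0.08, and NLRC5, the transactivator of class I genes, was at -0.14. The class I genes of the macaque are duplicated and near-identical, and the called sets of MAMU-B, MAMU-I, MAMU-A and MAMU-AG carry the x suffix that Affymetrix gives to sets with probes matching other transcripts, so their signals are uncertain between members. A second MAMU-B probe set was at 0.24, a second MAMU-AG set at 0.34 and a second MICB set at 0.44, opposite in sign to the called sets of these 3 genes. The other MAMU-I probe sets were at -0.47 and -0.54. None of these 5 sets was called. Of 22 tested interferon-induced genes none was called, with a median of -0.12.

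Of 15 tested HOX genes, which specify position along the body axis, 2 were higher in RiPS2 and none was lower. Over all genes 0.304% were higher and 0.951% lower. The median of the list was 0.21 against 0.01 over all genes. Both called genes belong to the HOXD cluster. HOXD13, the most posterior member, had 6.14, 5.45 and 6.37 in RiPS2 and 4.46, 4.32 and 4.07 in RiPS3. All RiPS3 arrays were under the floor, and RiPS2 was at least 1.98-fold higher. HOXD13 is among the 20 calls that passed the filter through 1 line alone, here RiPS2, so its direction was set by the filter. The fibroblasts were lower still at 3.91, and CRES-1 came closest to RiPS2 at 5.34.

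HOXD1, the most anterior member of the cluster, had 6.85, 6.36 and 7.61 in RiPS2 and 6.28, 5.30 and 4.77 in RiPS3 (1.49 ± 0.37, adjusted p = 0.0388, limma). RiPS2 B and RiPS3 A almost met, and the call was lost without RiPS2 A, RiPS2 C, RiPS3 B or RiPS3 C (adjusted p 0.123 to 0.195). HOXD9 and HOXD4 were higher by 0.56 and 0.47, below the 2-fold limit. HOXD10 split by probe set: the brightest gave -0.91, while a dimmer one had 7.33, 5.61 and 7.77 in RiPS2 and 4.67, 4.15 and 4.25 in RiPS3, at least 3.74-fold higher in RiPS2. This second set was named after its values were seen, and it passed the filter through the RiPS2 arrays alone. The other 5 groups averaged 4.15 to 4.71 on it. The genes of the HOXA, HOXB and HOXC clusters that were tested lay between -0.13 and 0.52, and none was called. Leaving out RiPS2 B or RiPS3 A added a call lower in RiPS2, the brightest HOXD10 set, and leaving out any of the other 4 arrays left HOXD13 as the only call.

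**Figure D4:**
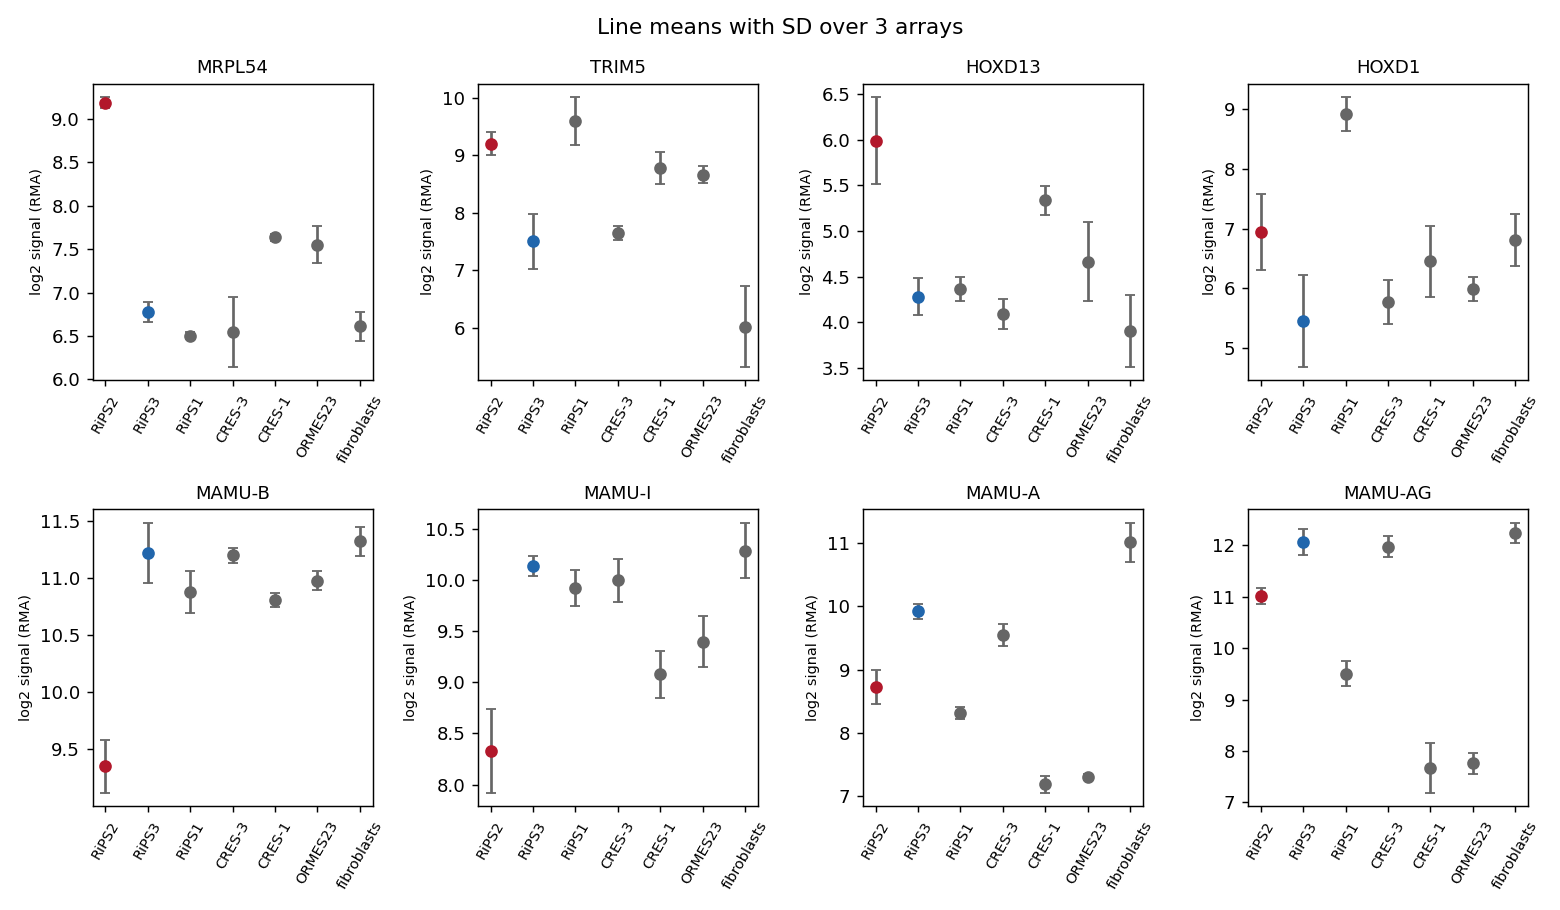
Line means with SD over 3 arrays, in log2 RMA signal on an axis scaled for each gene, for 8 genes in RiPS2 (red), RiPS3 (blue) and the other 5 groups (grey). RiPS2 is the highest group for MRPL54 and HOXD13 and the lowest for MAMU-B and MAMU-I, while for MAMU-A and MAMU-AG it lies between RiPS3 and the lines RiPS1, CRES-1 and ORMES23.

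The pluripotency network differed little between the lines. None of the 4 reprogramming factors was called by its brightest probe set. POU5F1 was at 0.17 ± 0.26 and SOX2 at -0.05 ± 0.19, each smaller than its standard error. KLF4 had 8.52, 8.04 and 7.15 in RiPS2 and 9.08, 7.96 and 7.74 in RiPS3, with overlapping arrays (-0.35 ± 0.36). MYC was at -0.06 ± 0.24. The labels do not say whether these probe sets can also read the retroviral copies.

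A dimmer KLF4 probe set, chosen after its values were seen, had 7.35, 7.13 and 6.77 in RiPS2 and 6.10, 5.48 and 5.81 in RiPS3 (1.28 ± 0.22, adjusted p = 0.00483, limma). The probe sets of KLF4 therefore disagreed in direction. NANOG had 9.21, 8.87 and 9.12 in RiPS2 and 8.93, 8.96 and 8.53 in RiPS3 (0.26 ± 0.26). The fibroblasts averaged 9.96 on this NANOG probe set, so it did not separate pluripotent from somatic cells here.

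Of 21 tested core and primed pluripotency genes 1 was called, higher in RiPS2, with a median of 0.08. The share called higher over all genes was 0.304%. THY1, a surface glycoprotein of both primate pluripotent cells and fibroblasts, had 10.2, 9.28 and 9.87 in RiPS2 and 8.95, 8.56 and 8.40 in RiPS3 (1.14 ± 0.30, adjusted p = 0.0489, limma). It lost the call without RiPS2 A, RiPS2 C, RiPS3 B or RiPS3 C (adjusted p 0.168 to 0.25). PRDM14, a repressor that guards the pluripotent state, was at 0.93 ± 0.30, and LIN28B, which blocks let-7 maturation, at 0.46 ± 0.13. GDF3 and NODAL, ligands of the nodal pathway, were at -1.13 and -0.72. None of these 4 passed the threshold. Of 10 tested naive pluripotency genes, which include KLF4, none was called by its brightest set.

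The endoderm list had the lowest median of all lists, -0.83 over 16 tested genes, yet none of its genes was called. CER1, a secreted antagonist of nodal, had 7.31, 6.56 and 6.35 in RiPS2 and 9.17, 9.81 and 8.70 in RiPS3 (-2.49 ± 1.04, adjusted p = 0.218, limma). GSC, a homeobox gene of the organizer, had 6.05, 6.36 and 5.88 in RiPS2 and 7.81, 9.01 and 7.54 in RiPS3 (-2.02 ± 1.03). FOXA2, a pioneer factor of endoderm, was at -1.71 ± 0.72. These standard errors pool the spread within all 7 groups and are not those of RiPS2 and RiPS3 alone. The arrays of the lines did not overlap for 6 of the 16 genes, these 3 among them, against 21.1% of all genes.

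GATA6 and SOX17, which specify endoderm, had overlapping arrays. GATA6 had 6.60, 5.67 and 6.99 in RiPS2 and 8.46, 9.54 and 6.89 in RiPS3. SOX17 had 6.88, 6.0 and 6.30 in RiPS2 and 7.99, 8.95 and 6.42 in RiPS3. RiPS3 C was the lowest RiPS3 array for both. The mean level of the 16 genes was 7.31, 7.06 and 7.37 on the RiPS2 arrays and 8.26, 8.71 and 7.59 on the RiPS3 arrays. The other pluripotent lines ranged from 7.63 ± 0.54 in CRES-3 to 8.51 ± 0.46 in RiPS1 (SD of 3 array means), and ORMES23 had the widest spread at 8.49 ± 1.21. RiPS2 was the lowest of the 6 pluripotent lines, with the fibroblasts at 6.68. No endoderm gene was called without any 1 array of the lines, without RiPS2 B and RiPS3 A, or with ORMES23 A left out, and the median lay between -1.26 without RiPS3 C and -0.49 without RiPS3 B. With no gene called, a lower level of these genes in RiPS2 was not established. Spread between arrays, fewer cells leaving the pluripotent state and less RNA per such cell cannot be told apart here in bulk RNA.

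**Figure D5:**
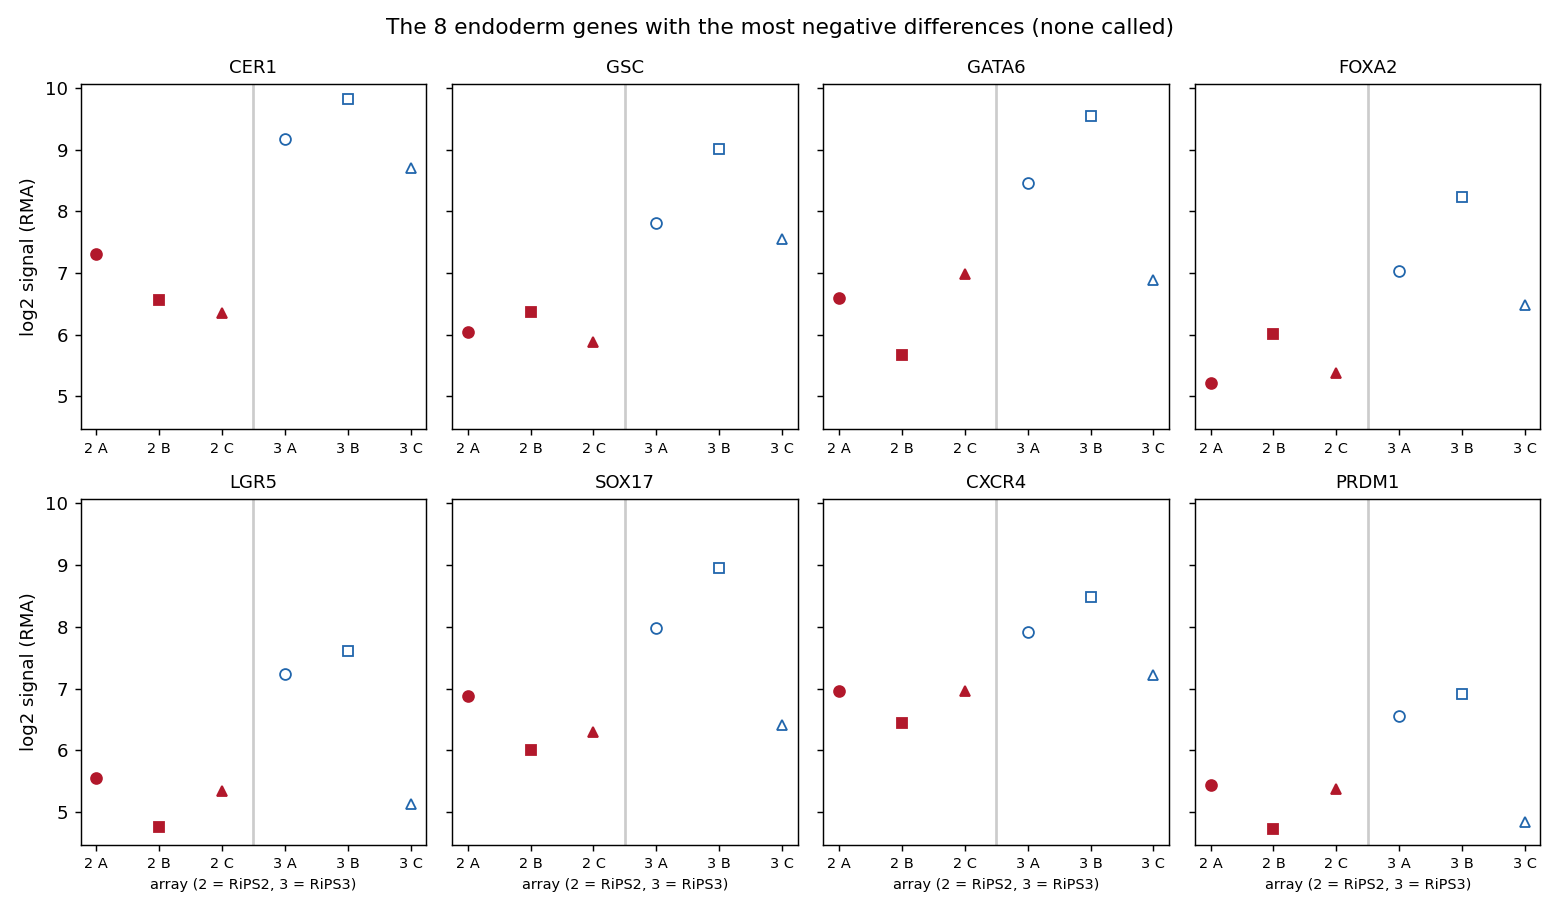
Log2 RMA signal on each RiPS2 array (filled red, left) and RiPS3 array (open blue, right) for the 8 endoderm genes with the most negative differences. RiPS3 B is the highest array for each of them, and the RiPS3 C values of GATA6, LGR5, SOX17 and PRDM1 reach those of the RiPS2 arrays.

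Of 17 tested mesoderm and primitive streak genes 1 was called, lower in RiPS2, while 0.951% of all genes were called lower. MESP2, a segmentation factor of the somites, had 5.67, 5.87 and 5.42 in RiPS2 and 6.53, 6.83 and 7.01 in RiPS3 (-1.13 ± 0.22, adjusted p = 0.00922, limma), and lost its call without RiPS2 C, RiPS3 B or RiPS3 C (adjusted p 0.0523 to 0.0617). The neural ectoderm list (15 tested) and the trophoblast list (17 tested) had medians of 0.00 and 0.05 and no call. Neither did the 8 tested germline and meiosis genes.

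Fibroblast and mesenchyme markers could mark feeder cells, differentiated cells or remnants of the donor cell. Of 28 tested, 2 were higher and 1 lower in RiPS2, with a median of 0.18. The shares over all genes were 0.304% higher and 0.951% lower. Besides THY1, ZEB1, a repressor of epithelial genes, had 6.38, 5.69 and 6.44 in RiPS2 and 4.94, 5.05 and 4.03 in RiPS3, at least 2.25-fold higher, and lost its call without RiPS2 A, RiPS2 C, RiPS3 B or RiPS3 C (adjusted p 0.0864 to 0.174). LGALS1, which encodes galectin-1 and is abundant in fibroblasts, had 10.4, 9.80 and 10.0 in RiPS2 and 11.5, 11.7 and 11.1 in RiPS3 (-1.35 ± 0.21), and remained called without any 1 array. The mean level of the 28 markers was 8.93, 8.28 and 8.88 on the RiPS2 arrays and 8.64, 8.65 and 8.28 on the RiPS3 arrays, against 11.2 in the fibroblasts. COL1A2, a collagen of fibroblasts, had 11.6, 9.62 and 10.2 in RiPS2 and 10.4, 8.89 and 8.22 in RiPS3, so its level overlapped between the lines. The part of such cells in the differences between RiPS2 and RiPS3 was not tested.

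X-linked genes bear on the question of the series. Of 393 X-linked genes, 5 were lower in RiPS2 and none was higher, and the median difference was -0.01. The share called was 1.27% on the X chromosome and 1.23% on the autosomes. Over all genes 0.951% were lower and 0.304% higher. The autosomal medians lay between -0.04 on chromosome 17 and 0.05 on chromosome 14, so the X chromosome did not stand apart. The mean of X-linked minus autosomal levels was 0.04, 0.07 and 0.05 on the RiPS2 arrays and 0.07, 0.09 and 0.04 on the RiPS3 arrays, which overlap.

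XG, a blood group gene at the pseudoautosomal boundary in human, where it escapes inactivation, had 5.36, 5.78 and 5.28 in RiPS2 and 6.75, 6.71 and 6.46 in RiPS3 (-1.17 ± 0.21, adjusted p = 0.00526, limma), and remained called without any 1 array. It was the only call among 27 tested genes reported to escape X inactivation in human, whose median was 0.08. OFD1, a centriole protein from the same list, was at 0.86 ± 0.18, under the 2-fold limit. The other X-linked calls were ZBTB33, TBC1D8B, TCEAL2 and STARD8, named because they are few, at -1.66, -1.27, -1.15 and -1.32. Each of the first 3 was lost without RiPS2 A, RiPS2 C, RiPS3 B or RiPS3 C (adjusted p 0.117 to 0.219), and STARD8 was called only without RiPS3 A (adjusted p 0.0533 to 0.128 without each of the others). Of 11 tested regulators of X inactivation none was called.

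Lists of metabolism, growth and signalling had no call by the brightest probe set. None was found among 24 glycolysis and hypoxia genes, 24 oxidative phosphorylation genes, 24 cell cycle genes, 18 sterol genes, 11 DNA methylation enzymes, 33 WNT pathway genes or 32 FGF and IGF pathway genes. Of 11 paternally and 15 maternally expressed imprinted genes none was called by its brightest set, but NTM, from the maternal list, was called on 2 dimmer sets at 1.15 and 1.09, both kept in 2 of the 6 fits that left out 1 array. The medians of these lists lay between -0.11 and 0.26. The lists of epithelial junctions (24 tested), activin, nodal and TGF-beta signalling (29), cell cycle inhibitors and p53 targets (19), the BCL2 family (14) and endothelial and blood markers (9) held no call by the brightest set either. FST, the activin antagonist follistatin, was called on its dimmest set at 1.30 ± 0.30, kept in 2 of those 6 fits, while its other sets were at 0.77 and 0.90 and not called. Wide differences among these genes did not pass the test, and the 2 given here were chosen after their values were seen. SLC16A3, the exporter of lactate, was at -1.96 ± 0.56 (adjusted p = 0.065, limma) and the WNT antagonist DKK1 at -2.51 ± 0.89 (adjusted p = 0.142, limma).

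Of the 170 genes with a call, 81 had several tested probe sets. All probe sets of 58 of these had the same sign, 23 had 1 or more of the opposite sign, and none had calls in both directions. In 38 genes the call came from a probe set that was not the brightest. SLC38A4, chosen after its values were seen, is of this kind. The gene encodes an amino acid transporter and is imprinted in mouse. Its called set had 3.36, 3.07 and 3.34 in RiPS2 and 8.21, 7.30 and 7.02 in RiPS3, at least 5.69-fold lower in RiPS2, and passed the filter through the RiPS3 arrays alone. Its brighter set gave -0.31 and was not called.

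MDH2, the mitochondrial malate dehydrogenase, differed in the other direction, on a dimmer set. Its brightest set had 11.2, 11.4 and 11.2 in RiPS2 and 11.5, 11.6 and 11.7 in RiPS3, without a call. The dimmer set had 8.52, 8.15 and 8.56 in RiPS2 and 6.16, 5.93 and 5.87 in RiPS3 (2.43 ± 0.27). Some genes had several sets called the same way. DPEP1, a dipeptidase of glutathione breakdown, had 3 of its 4 sets called lower, at -1.01, -1.23 and -1.34. These were kept in 3, 5 and 6 of the 6 fits that left out 1 array, and its other set was at 0.11 and not called. SMYD3, a lysine methyltransferase, had both sets called at -1.07, each kept in 4 of those 6 fits. LGALS1 had both sets called at -1.35 and -1.42. These genes too were picked after their values were seen.

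The called genes were also placed among the other pluripotent lines. These probe sets were chosen for a difference between RiPS2 and RiPS3. That choice alone can move their shares away from those over all tested probe sets, so the shares are a description and no test. On 73 of the 187 called probe sets only RiPS2 lay outside the range of the means of the other 4 pluripotent lines, on 30 only RiPS3 did, on 67 both did and on 17 neither did. Over all tested probe sets the shares were 23.7%, 16.2% and 15.9% for the first 3 of these. CRES-3, the cloned female line, was nearer to RiPS3 than to RiPS2 on 166 of the 187 called probe sets, or 88.8%, against 66.0% of all tested. The same share was 63.6% of called against 56.3% of all tested probe sets for RiPS1, and 59.4% against 46.1% for the fibroblasts. It was 48.1% of both for ORMES23 and 46.0% against 43.4% for CRES-1. Between CRES-3 and RiPS3 themselves 6 probe sets were called, 0.0357%. Whether RiPS3, CRES-3 and the fibroblasts share a donor is not stated in the labels.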

How the data were processed

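Labelled RNA from 21 cultures was hybridised to Affymetrix rhesus arrays. The deposited values are log2 signals made by the authors with RMA, per the submitters' processing notes. Its version and settings are not named there. Depth does not apply to arrays, and their number, 3 per line, limits the precision. Symbols came from the platform annotation and were checked against RefSeq names for 24629 probe sets. Probe sets without a symbol or with several (27535 and 361) were left out of the comparison.

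Probe sets at log2 5 or more on 3 or more of the 6 arrays were tested with limma 3.58.1 in R 4.3.3. The model held a mean for each of the 7 groups over all 21 arrays (14 residual degrees of freedom), with moderated variances and Benjamini-Hochberg adjustment over 17013 probe sets. A call needs an adjusted p below 0.05 and a difference of at least 1 log2 unit. A gene is read by its brightest probe set over the 6 arrays. Folds of genes whose dimmer line averaged under log2 5 are counted from log2 5. The fit was tested on simulated data. Named genes are the 12 largest called differences each way with arrays that do not overlap, leaving out symbols that start with LOC. They also include up to 4 genes of smallest p in each list, the 4 factors and NANOG. Other genes were named outside these rules, and not all of them are marked as chosen after their values were seen. The comparison, its members and the gene lists were chosen with earlier results of these data known. Same-letter arrays of the lines correlated in their deviations at 0.35, 0.23 and -0.32 for A, B and C, so the letters were not taken to pair them. No probe or genome sequence was used here.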

Additional observations from a re-analysis of the deposited data

Results flagged for a closer look

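Probe sets without a single gene symbol were outside the comparison. Of 10849 such probe sets past the same log2 5 filter, 154 were called between RiPS2 and RiPS3, 1.42%, with the same limma model. Of these, 11 differed by at least 3 log2 units, 9 lower and 2 higher in RiPS2. They are given because they show a signal in data that the comparison does not use. The annotation used here pairs none of them with a single gene.

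The probe set MmuMitochon.6.1.S1_s_at, whose identifier marks it as mitochondrial, had log2 7.63, 6.32 and 5.77 on the RiPS2 arrays and 14.2, 14.1 and 14.1 on the RiPS3 arrays, a difference of -7.56. MmuMitochon.3.1.S1_s_at differed by -6.95 and MmuMitochon.10.1.S1_s_at by -6.15. Of 6 probe sets with such identifiers 5 were called, and MmuMitochon.12.1.S1_s_at was not, at 0.06. CRES-3 was also low on MmuMitochon.10.1.S1_s_at at 7.06 and intermediate on MmuMitochon.3.1.S1_s_at at 10.6, whereas ORMES23, CRES-1, RiPS1 and the fibroblasts averaged 13.5 to 13.9 on both.

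Further probe sets lower in RiPS2 differed by -6.48, -6.26, -5.86, -5.70, -3.62 and -3.15, the fifth of them being MmugDNA.23547.1.S1_at. Those higher in RiPS2 were MmugDNA.37108.1.S1_at by 5.76 and another probe set by 3.20. MmugDNA.37108.1.S1_at had 8.24, 8.00 and 8.40 in RiPS2 and 2.29, 2.61 and 2.46 in RiPS3. On it CRES-3 and the fibroblasts were as low as RiPS3, at 2.62 and 2.81, and RiPS1, CRES-1 and ORMES23 averaged 8.19 to 9.13. It was the probe set on which RiPS2 lay with the lines labelled male.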

How the results depend on the processing

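With 57 probe sets higher and 130 lower in RiPS2, using only the 6 arrays of the lines gave 31 and 49, array quality weights 139 and 259, and no fold limit 184 and 320. Reading 1 probe set per gene gave 32 higher, and the mean of the probe sets of a gene 29 higher. Leaving out 1 array gave 28 to 132 higher and 41 to 276 lower. Leaving out RiPS2 B and RiPS3 A gave 259 and 424. They were chosen after their closeness to the other line was seen, so a wider gap is built into that choice. Apart from that choice and from fewer features tested where a gene counts as 1, the cause of these shifts was not tested. The replicate block gave 53 higher and 133 lower. A log2 6 filter, no filter, centred medians, quantile normalization, an intensity trend, the 18 pluripotent arrays and the fit without ORMES23 A kept both counts within 1.5 times. Of 30 named genes with a call, 14 kept it under every alternative and none reversed. Calls of single genes on 3 arrays a line thus rest on few arrays, and dim probe sets have only a bound.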

Other observations

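The immediate early and stress genes, transcription factors and their partners that cells switch on within minutes of handling, were highest on array A of both lines. The mean level of 23 tested genes was log2 9.08, 8.76 and 8.57 on RiPS2 A, B and C and 9.39, 8.55 and 8.50 on RiPS3 A, B and C, and none was called between the lines. EGR2, chosen after its values were seen, had 7.81, 8.45 and 7.35 in RiPS2 and 10.3, 6.95 and 7.62 in RiPS3, and CCN1 had 11.8, 10.7 and 10.9 in RiPS2 and 12.1, 11.0 and 11.0 in RiPS3. RiPS3 A was the highest of the 6 for both, but among the RiPS2 arrays EGR2 was highest on B. Whether these levels bear on the likeness of RiPS3 A to the RiPS2 arrays was not tested.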
